A study of Mus musculus with 6 samples.

Results

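The replication-dependent histone genes supply the histones that package newly copied DNA, and they were described here in mouse mammary tumor spheroids treated with recombinant SLURP1. Members were the rows of the deposited gene table whose symbol begins with Hist1h, Hist2h, Hist3h or Hist4h, leaving out names with -ps, which mark pseudogenes. This gave 68 of 54146 genes, made up of 6 H1, 19 H2A, 18 H2B, 12 H3 and 13 H4 genes. Of these, 55 lie on chromosome 13, 10 on chromosome 3, 2 on chromosome 11 and 1 on chromosome 6, and 63 have 1 exon. Hist1h2aj is annotated as an unprocessed pseudogene and was kept because its symbol fits the rule.

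Spheroids of D2A1, a mouse cell line from a mammary tumor, were kept in 3D Matrigel and treated with 50 nM rSLURP1 or with 50 nM rGST, a recombinant protein used as the control. SLURP1 is a secreted protein related to the Ly6 and uPAR family, and the series was made to find genes that differ between treated and control cells in vitro. All 6 libraries, 3 per treatment, came from the same unmodified line, and the labels give the RNA as polyA RNA. They do not say whether the 3 libraries of a group came from separate cultures, so p-values measure the spread between these libraries, which may be technical. Values are in TPM, a transcript abundance in which every library has the same total and gene length is corrected for. Of the mammary epithelial markers, Krt18 was abundant at 191.05 to 199.39 TPM, but Epcam, Krt5 and Krt14 were listed at 0 in every library and Cdh1 did not exceed 0.07 TPM and 7 of the 9 markers did not pass the filter on low values. Summed TPM of the fibroblast marker list was 1008 to 1139 in rGST and 75.2 to 85.3 in rSLURP1 spheroids, with 5 of 5 tested markers lower. Leukocyte markers summed to 3.58 to 4.08 and 7.85 to 10.6 TPM, nearly all of it Cd68, with Adgre1 and Cd3e at 0 and Ptprc at or below 0.01. Endothelial markers summed to at most 0.31. The part of cell state or makeup in the histone values was not tested, and in bulk samples fewer cells of a kind and less RNA per cell cannot be told apart.

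Histone octamers hold a pair each of H2A, H2B, H3 and H4, and linker histone H1 binds the DNA that enters and leaves the particle. The genes for these proteins are clustered, transcribed in S phase under NPAT, and their mRNAs end in a conserved stem-loop in place of a poly(A) tail. SLBP binds the stem-loop, the U7 particle directs the cut just after it, and the mRNAs are destroyed when DNA synthesis stops. Some histone genes also make longer, polyadenylated mRNAs from a site further downstream, most of all in differentiated or resting cells, and selection for poly(A) keeps those forms.

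The stem-loop is shown first, because it defines the family and bears on what a poly(A) library can see. A 16-base sequence matching the full stem-loop consensus was searched for after the stop codon of the longest GENCODE M21 transcript of each gene and was found in 45 of 68 members. For 13 members the annotated transcript ends at the stop codon, so that no tail could be read. Hist1h2af and Hist1h2ah have only 1 and 2 bases after it, and Hist1h2aj has no annotated stop codon. These could not be searched either. Among genes with at least 100 annotated bases after the stop codon, the first 100 held the consensus in 26 of 31 members (83.9%) and in 3 of 20182 other coding genes (0.0149%), which were H2afx, H2bfm and Nemp1. Below, capitals mark the stem-loop, written as DNA 5′ to 3′ with its flanking bases.
Hist1h1c: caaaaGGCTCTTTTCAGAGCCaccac
Hist3h2a: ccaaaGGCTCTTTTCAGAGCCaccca
Hist1h2ap: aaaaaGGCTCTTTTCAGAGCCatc
Hist2h3c2: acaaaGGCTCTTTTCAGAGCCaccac
Hist1h2bk: ccaaaGGCTCTTTTAAGAGCCactaa
Hist1h4h: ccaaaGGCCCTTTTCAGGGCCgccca
Hist1h4i: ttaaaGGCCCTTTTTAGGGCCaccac
Hist1h4b: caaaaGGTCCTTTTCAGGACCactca
The stem separated the H4 genes from the other classes. All 33 stem-loops found in H1, H2A, H2B and H3 genes had a stem beginning GGCTC, whereas the 12 found in H4 genes began GGCCC in 10 and GGTCC in 2. There were 8 different forms in all, and 1 of them was shared by 25 genes of 4 classes.

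Long annotated tails ran on past the stem-loop in some of these genes. In Hist1h1c the element lies at chr13:23739512-23739527 (GRCm38, plus strand), with 840 further bases before the annotated end. In Hist3h2a it lies at chr11:58955172-58955187 (plus strand), with 1643 bases after it. In Hist1h4i it lies at chr13:22040966-22040981 (minus strand), with 330 bases after it, whereas in Hist1h2ap, at chr13:21833029-21833044 (minus strand), the annotated transcript stops 3 bases after it. The annotated tails of Hist1h2bc and Hist2h2be held no full match. The nearest 16 bases departed from the consensus at 4 positions in Hist1h2bc, whose tail lies mostly in a second exon, and at 3 positions in Hist2h2be, and they are printed here only to show how far they are from the stem-loop, in capitals.
Hist1h2bc: tggaaGGCCTATTCTCAGTCCctagg
Hist2h2be: accacTGCTTTTTTTAAAATAtattt

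A pair of genes made up most of the histone signal in 5 of the 6 libraries. Hist1h2ap, an H2A gene, and Hist1h1c, which encodes linker histone H1.2, together held 64.5% to 73.5% of all histone TPM in the rGST libraries, and 49.9%, 71.0% and 70.0% in rSLURP1 replicates 1, 2 and 3. Most members were scarce: 22 were below 1 TPM in every library, and Hist1h2aa and Hist1h2bn were listed at 0 throughout. The test was run across the 12301 genes that reached 1 TPM in at least 3 libraries, which included 26 members, namely 2 H1, 6 H2A, 9 H2B, 3 H3 and 6 H4 genes. The other 42 members were not tested.

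With rSLURP1, 5 tested histone genes were lower and 2 were higher, with 19 not called (limma on log2(TPM + 1), Benjamini-Hochberg adjusted p of 0.05 or less). Lower were Hist1h1c, Hist3h2a, Hist1h2bc, Hist2h2be and Hist1h4i, and the first 4 of these fell at least 2-fold. Higher were Hist1h2bl and Hist1h4b. Among all tested genes 58.5% were called lower, 8.66% higher and 7.06% lower by at least 2-fold. Of the tested histone genes, 19.2% were lower, 7.69% were higher and 15.4% were lower by at least 2-fold, so their share was below that of the table for all lower calls and above it at 2-fold. Hist1h1e and Hist1h2bl reached 1 TPM in rSLURP1 libraries only, so they entered the test through the group in which they were high, and the higher call of Hist1h2bl is a description and not evidence of a difference. Hist1h4b and Hist2h2be met the filter through all 3 libraries of the group in which they were high. Neither reached 1 TPM in every library, so their calls are read with the same limit. The median log2 fold change was 0.09 over the tested histone genes and -0.33 over all tested genes, and 17 of the 26 lay above the latter. The members' median was -0.12 without rSLURP1 replicate 1, described next, and -0.20 over the 10 members that reached 1 TPM in every library. TPM fixes each library's total, and when the libraries were instead scaled by their median ratio, the all-gene median moved to -0.00 and the calls over all genes from 7200 lower and 1065 higher to 3094 lower and 3198 higher. Under that scaling the histone calls were 4 lower and 4 higher. Without rSLURP1 replicate 1 they were 7 lower and 1 higher. Of the 7 called in the main fit, Hist2h2be was not picked by the naming rule and is described because its values singled it out.

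**Figure D1:**
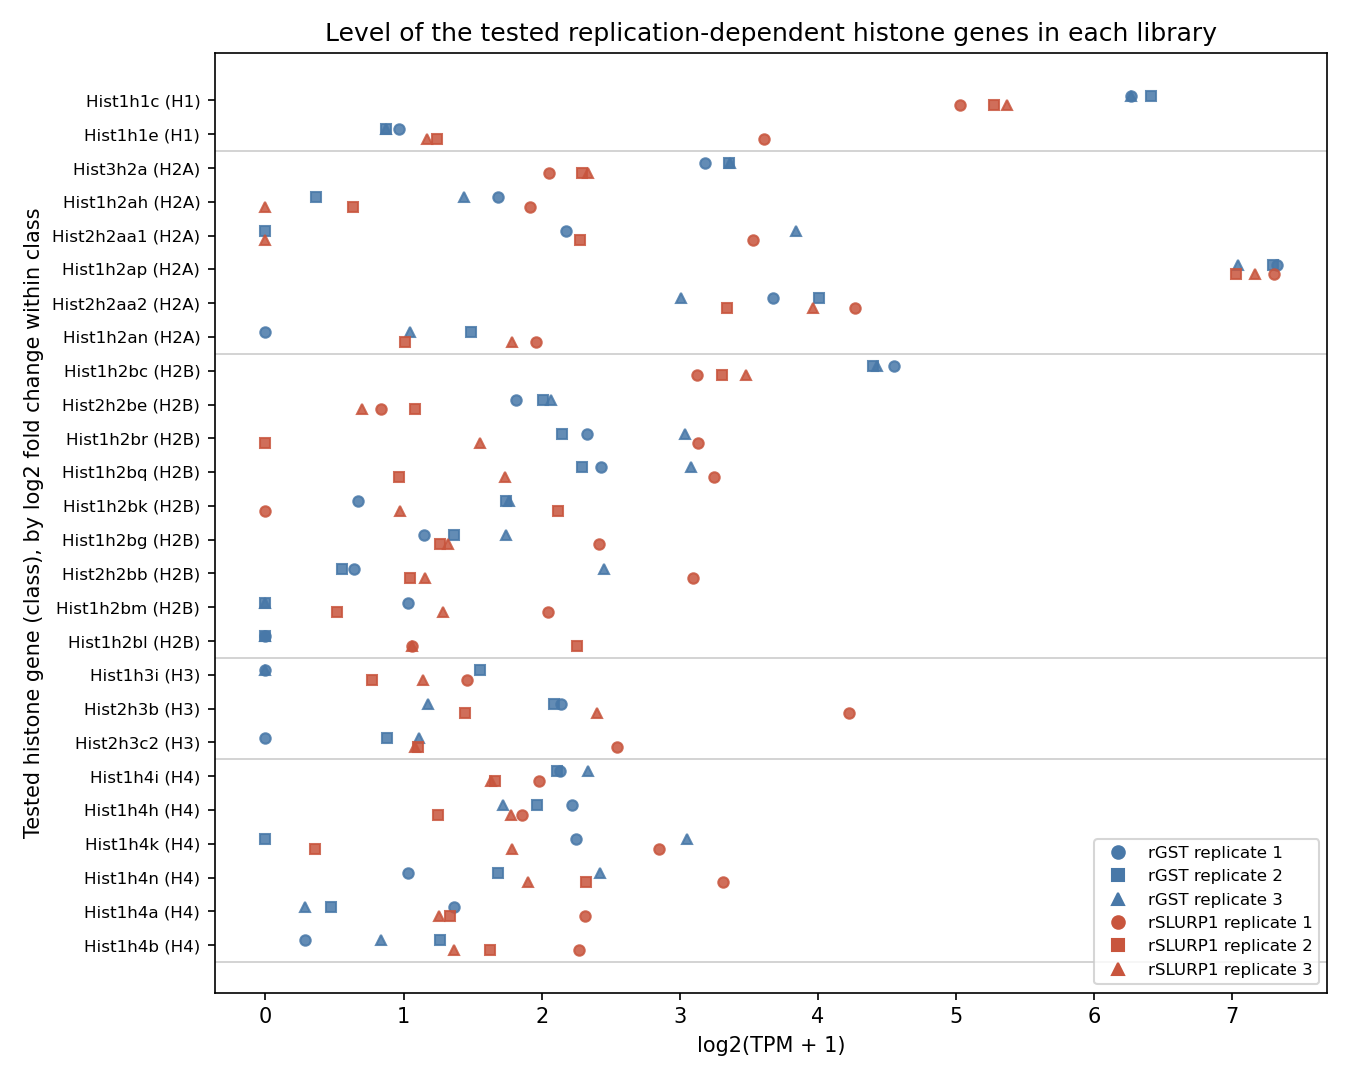
Level of each of the 26 tested histone genes in every library, as log2(TPM + 1), grouped by class and ordered by fold change; points are libraries, in blue for rGST and red for rSLURP1, with the marker giving the replicate. Hist1h1c, Hist3h2a, Hist1h2bc, Hist2h2be and Hist1h4i have all 3 red points below all 3 blue ones, and rSLURP1 replicate 1 (red circle) lies furthest right in many other genes.

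One library stood apart for these genes. Of the 66 members above 0 in any library, 34 were highest in rSLURP1 replicate 1, where only 5.0% of all tested genes were highest. Of these 34 members 20 were not tested, whereas the 5.0% is over tested genes only. In rSLURP1 replicate 1, 37 members reached 1 TPM, against 18 to 27 in the other 5 libraries. Its tested members lay a median of 0.60 above their group mean on the log2 scale, with 20 of 26 above it, whereas the median of all genes was -0.026. Apart from Hist1h2ap and Hist1h1c, the other 66 members summed to 92.52, 86.53 and 114.15 TPM in rGST replicates 1, 2 and 3 and to 189.24, 68.37 and 78.64 TPM in the rSLURP1 replicates. The same library was high in RNAs that carry no poly(A) tail. A list of 15 such RNAs, with 13 tested, summed to 2820 to 3368 TPM in rGST and to 6654, 3220 and 3740 TPM in rSLURP1 replicates 1, 2 and 3. Most of the excess was in Rn7s1 and Rn7s2, copies of the signal recognition particle RNA that had equal values in every rGST library, so the split between them is uncertain. Together they gave 936.90, 852.76 and 988.64 TPM in rGST and 3187.26, 717.20 and 737.06 TPM in rSLURP1. On the list 2 RNAs were called higher, Rpph1, the RNA of RNase P (log2 fold change 1.34, adjusted p = 0.0325), and Rny1, a Y RNA (0.62, adjusted p = 0.00924), and none was called lower. Without rSLURP1 replicate 1 these were 0.77 and 0.55 and still called (limma adjusted p = 0.0247 and 0.0339). Vaultrc5 was then called higher as well (1.27, limma adjusted p = 0.0178). The part of RNA without a poly(A) tail in the histone values was not tested. Values without this library are given below for a part of the results, and not for every gene or list.

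**Figure D2:**
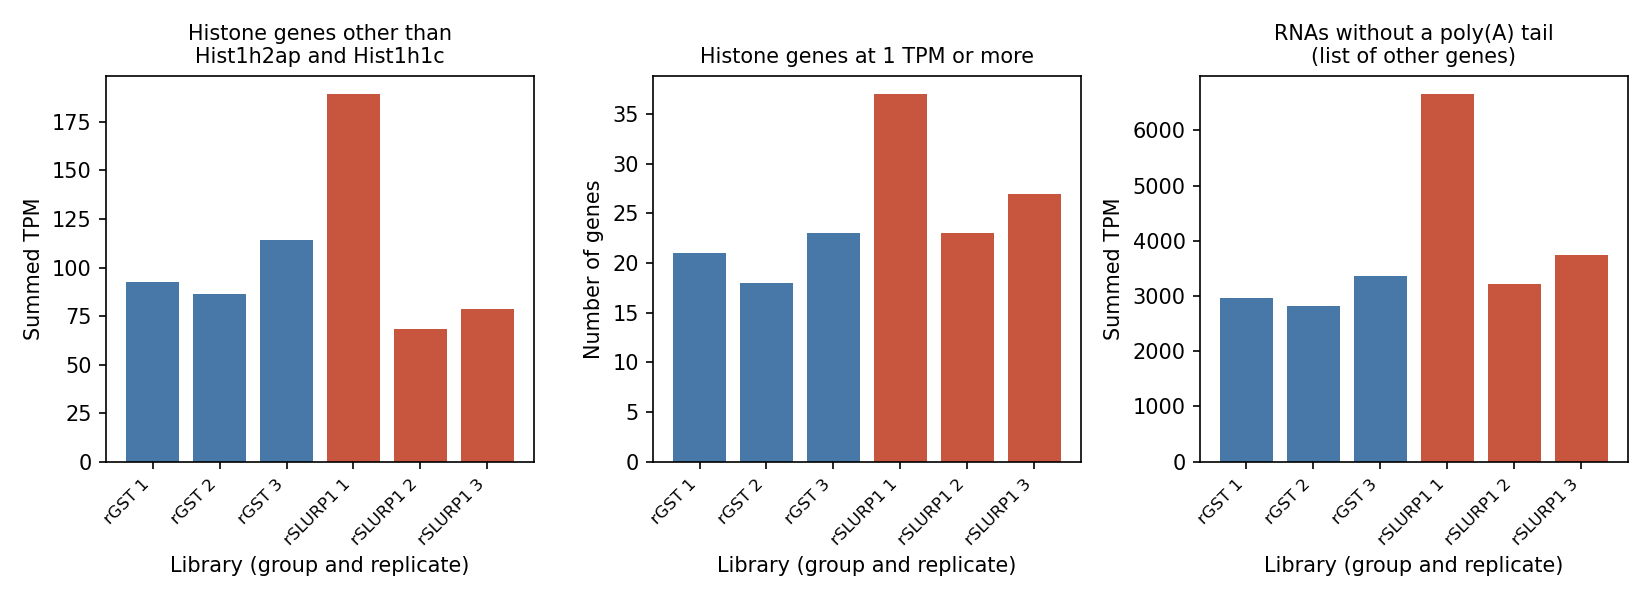
Values per library: summed TPM of the 66 histone genes other than Hist1h2ap and Hist1h1c (left), number of histone genes at 1 TPM or more (middle) and summed TPM of the list of RNAs without a poly(A) tail (right), with rGST in blue and rSLURP1 in red. rSLURP1 replicate 1 is the highest bar in each panel, at 189.24 TPM, 37 genes and 6654 TPM.

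Class totals were compared next, because near-identical members share reads, and a sum does not depend on the split between members of its class. Sums remain uncertain where sequence is shared outside the class. Hist1h1e shares sequence with the H2B gene Hist1h2be. Hist2h2aa1, Hist2h2aa2, Hist2h3b, Hist2h3c1 and Hist2h3c2 share sequence with Gm20634, a gene outside the family. Hist2h2bb does so with Gm42743 and Hist3h2a with Trim17, also outside the family. The effect of this sharing on the totals was not tested. The H1 total was lower with rSLURP1, and the totals of the 4 core classes were not called. H1 genes summed to 78.51, 85.34 and 77.75 TPM in rGST replicates 1, 2 and 3 and to 47.80, 40.69 and 43.30 TPM in the rSLURP1 replicates. Every rSLURP1 library was thus below every rGST library. Most of this total was Hist1h1c, and the sum of the other 5 H1 genes went the other way. That sum was 2.25, 1.28 and 1.76 TPM in rGST and 16.13, 2.92 and 2.87 TPM in rSLURP1. The log2 fold change of the H1 total was -0.86 (SE 0.069, limma adjusted p = 3.46e-05), and it was -0.51 under median-ratio scaling (adjusted p = 0.00124). H2A genes summed to 180 ± 11.2 TPM in rGST and 178 ± 29.2 TPM in rSLURP1 (SD, n = 3 each). Their log2 fold change was -0.03 (SE 0.109, adjusted p = 0.827 by limma) and turned to 0.32 under median-ratio scaling, to 0.18 under quantile normalization and to 0.07 without rSLURP1 replicate 2.

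The H2B, H3 and H4 totals turned on rSLURP1 replicate 1. H2B genes summed to 38.93, 35.88 and 48.01 TPM in rGST and to 50.14, 22.33 and 23.92 TPM in rSLURP1, so the groups overlapped (log2 fold change -0.43, SE 0.284, limma adjusted p = 0.215). Without rSLURP1 replicate 1 the H2B total was called lower, at -0.79 (adjusted p = 0.00191). H3 genes summed to 5.43, 7.32 and 5.48 TPM in rGST and to 34.38, 5.67 and 8.45 TPM in rSLURP1. Their log2 fold change of 0.90 (SE 0.549, limma adjusted p = 0.183) was 0.18 without that library. H4 genes summed to 17.46, 12.62 and 22.69 TPM in rGST and to 34.92, 13.44 and 16.16 TPM in rSLURP1, a log2 fold change of 0.19 (SE 0.344, adjusted p = 0.639) that turned to -0.20 without it and to -0.01 without rGST replicate 2. All members together gave 328.18, 326.95 and 321.37 TPM in rGST and 377.76, 235.86 and 261.80 TPM in rSLURP1 (log2 fold change -0.19, SE 0.153, adjusted p = 0.308). This total was called lower without rSLURP1 replicate 1, at -0.39 (limma adjusted p = 0.001), and turned to 0.17 under median-ratio scaling (adjusted p = 0.433).

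**Figure D3:**
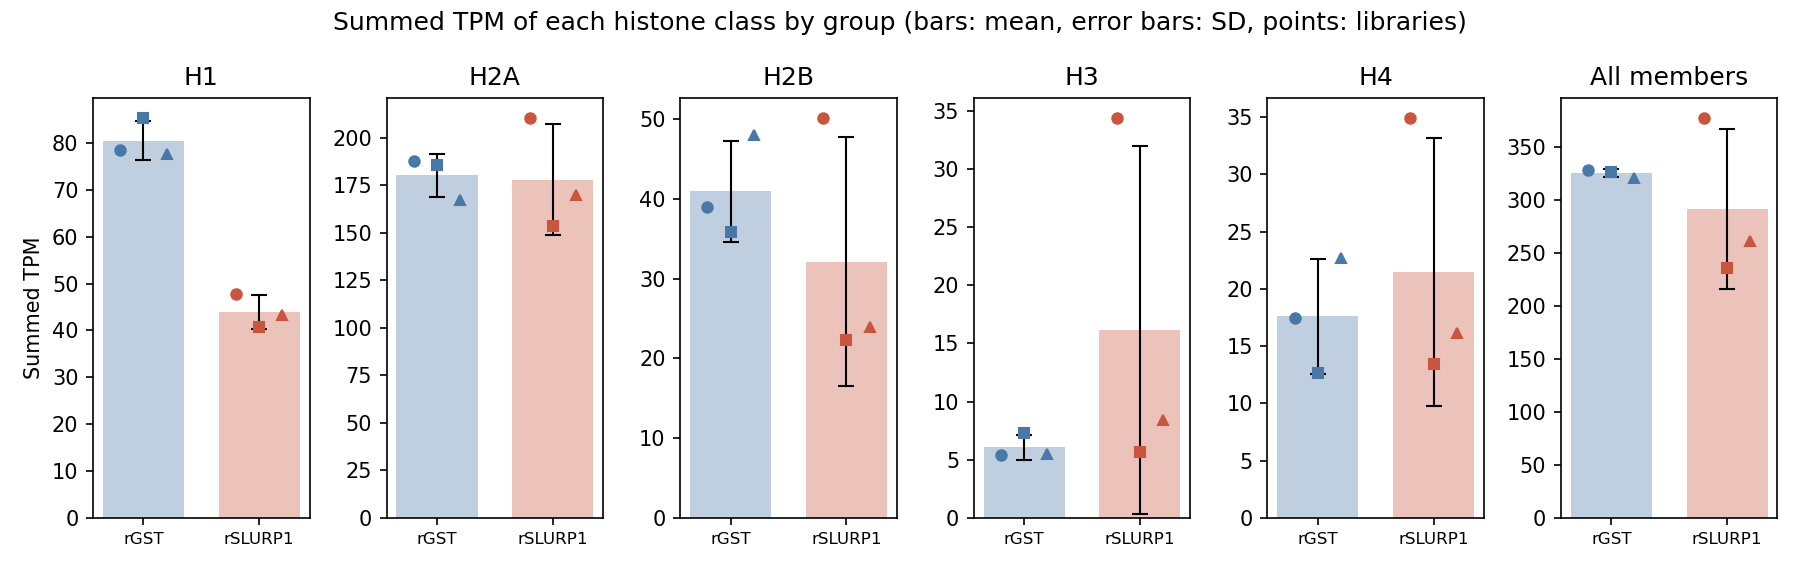
Summed TPM of the H1, H2A, H2B, H3 and H4 genes and of all members, by group; bars are means, error bars are SD over 3 libraries, points are libraries (circle, square and triangle for replicates 1, 2 and 3), and each panel has its own axis from 0. The H1 points of the groups do not overlap, at 77.75 to 85.34 against 40.69 to 47.80 TPM, and the rSLURP1 circle is the highest point in the H2A, H2B, H3 and H4 panels.

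The makeup of the histone pool was read as the share of each class in a library's histone TPM. H1 genes, mostly Hist1h1c by TPM, made up 24.7% ± 1.19 of histone TPM in rGST and 15.5% ± 2.47 in rSLURP1 spheroids (SD, n = 3 each), and H3 genes 1.87% ± 0.32 and 4.91% ± 3.65. The rSLURP1 mean of the H3 share was 2.82% without replicate 1, and that of the H1 share 16.9%. In both classes the groups did not overlap, and the exact two-sided permutation p was 0.1, the smallest that 3 against 3 libraries can give, and 0.25 after adjustment over the 5 classes. H2A genes made up 55.4% ± 2.85 and 61.9% ± 5.38, H2B genes 12.6% ± 2.08 and 10.6% ± 2.3, and H4 genes 5.41% ± 1.6 and 7.04% ± 1.92. For these 3 classes the shares overlapped between groups, with exact permutation p of 0.3, 0.3 and 0.4.

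Of the 6 H1 members 2 were tested, and of these Hist1h1c fell and Hist1h1e was not called. Hist1h1c (chr13:23738808-23740367, plus strand) was at 76.26, 84.06 and 75.99 TPM in rGST and at 31.67, 37.77 and 40.43 TPM in rSLURP1. All rSLURP1 libraries were below all rGST libraries, and the lowest was replicate 1, in which many other members were highest. The log2 fold change was -1.09 (SE 0.092, limma adjusted p = 4.26e-05), which is -0.76 after taking off the all-gene median. Hist1h1e, the gene for H1.4, was at 0.95, 0.83 and 0.83 TPM in rGST and at 11.21, 1.37 and 1.25 TPM in rSLURP1 (log2 fold change 1.11, SE 0.600, adjusted p = 0.138). Its rSLURP1 libraries all lay above rGST, but the size came from replicate 1, without which the log2 fold change was 0.31. Hist1h1e also overlaps Hist1h2be and shares 32.0% of its 50-base words with other genes. The remaining H1 genes were not tested: Hist1h1b reached 3.42 TPM in rSLURP1 replicate 1 and 0.28 to 1.15 TPM elsewhere, and Hist1h1a, Hist1h1d and the testis gene Hist1h1t did not exceed 1.10 TPM.

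Hist1h2ap dominated the H2A class and was not called. It was at 159.40, 156.36 and 131.23 TPM in rGST and at 156.85, 129.72 and 142.73 TPM in rSLURP1, with overlapping groups and a log2 fold change of -0.06 (SE 0.093, limma adjusted p = 0.608). Under median-ratio scaling it was 0.30 and called higher (adjusted p = 0.0445). Of its 50-base words, 93.1% also occur in Hist1h2ao, itself at 0 in rGST and at up to 1.34 TPM in rSLURP1, so the reads of this sequence may belong to either gene. Hist3h2a, which with Hist3h2ba makes up the members on chromosome 11, was at 8.09, 9.23 and 9.30 TPM in rGST and at 3.15, 3.91 and 4.05 TPM in rSLURP1. The groups did not overlap, with a log2 fold change of -1.07 (SE 0.113, adjusted p = 1.28e-04). The end of its transcript overlaps Trim17 on the same strand, with 660 shared 50-base words, so that part of its reads could come from either gene.

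The other H2A genes were not called. Hist2h2aa1 and Hist2h2aa2 are near-identical copies, and together they gave 15.31, 15.07 and 20.4 TPM in rGST and 28.86, 12.98 and 14.64 TPM in rSLURP1. Their split differed from library to library, with Hist2h2aa1 listed at 0 in rGST replicate 2 and rSLURP1 replicate 3. Hist1h2an had the highest fold change of the class, with 0.00, 1.81 and 1.07 TPM in rGST and 2.89, 1.01 and 2.45 TPM in rSLURP1 (log2 fold change 0.74, SE 0.410, adjusted p = 0.146 by limma). Among untested H2A genes, Hist2h2ac reached 8.42 TPM in rSLURP1 replicate 1 and 0.09 to 1.87 TPM in the other libraries.

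Of 9 tested H2B genes, 2 were lower and 1 was higher. Hist1h2bc (chr13:23684199-23692908, plus strand) was at 22.50, 20.13 and 20.54 TPM in rGST and at 7.72, 8.90 and 10.18 TPM in rSLURP1. The groups did not overlap, and the log2 fold change was -1.16 (SE 0.103, limma adjusted p = 5.68e-05). Hist2h2be (chr3:96221119-96223738, plus strand) was at 2.52, 3.03 and 3.20 TPM in rGST and at 0.79, 1.12 and 0.62 TPM in rSLURP1 (log2 fold change -1.09, SE 0.158, adjusted p = 6.16e-04). With a pseudocount of 0.1 the log2 fold change was -1.70 for Hist2h2be and -1.24 for Hist1h2bc, since a pseudocount of 1 shrinks the change of low genes more. Hist2h2be shares no 50-base word with another annotated gene, so its reads have a single source in the annotation. Hist1h2bc shares 30.1% of its words with other genes. Hist1h2bl stood at 0 in all 3 rGST columns and at 1.09, 3.78 and 1.09 TPM in rSLURP1 (adjusted p = 0.00529), and no fold is given against 0. Its annotated transcript ends at the stop codon, and 82.8% of its 50-base words occur in other genes.

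Hist1h2bq and Hist1h2br are near-copies of each other with long, spliced tails. Their sum was 8.4, 7.33 and 14.68 TPM in rGST and 16.29, 0.95 and 4.27 TPM in rSLURP1, high in the first rSLURP1 library and below rGST in the other 2. Neither was called with all libraries (log2 fold change -0.62 and -0.94, limma adjusted p = 0.331 and 0.265). Without rSLURP1 replicate 1 both were called lower, at -1.25 (adjusted p = 0.0138) and -1.73 (adjusted p = 0.02).

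No H3 gene passed the test. Hist2h3b was at 3.41, 3.25 and 1.26 TPM in rGST and at 17.76, 1.72 and 4.27 TPM in rSLURP1 (log2 fold change 0.89, SE 0.649, limma adjusted p = 0.256), and without rSLURP1 replicate 1 the value was 0.12. Hist2h3c2 was at 0.00, 0.84 and 1.16 TPM in rGST and at 4.84, 1.15 and 1.12 TPM in rSLURP1 (0.91, SE 0.453, adjusted p = 0.109), and without that library the value was 0.43. Hist1h3i was at 0.61 (SE 0.432, adjusted p = 0.245), and at 0.44 without it. The untested Hist1h3h showed the same library standing out, at 4.20 TPM in rSLURP1 replicate 1 and at most 1.09 TPM elsewhere.

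Of 6 tested H4 genes, Hist1h4i was lower and Hist1h4b higher, each by a small margin. Hist1h4i (chr13:22040636-22041362, minus strand) was at 3.39, 3.33 and 4.06 TPM in rGST and at 2.95, 2.16 and 2.11 TPM in rSLURP1 (log2 fold change -0.44, SE 0.142, limma adjusted p = 0.0271). It was not called under median-ratio scaling (-0.17, adjusted p = 0.357) or without any 1 of rGST replicate 3, rSLURP1 replicate 2 and rSLURP1 replicate 3 (adjusted p = 0.0826, 0.0775 and 0.0846). Hist1h4b was at 0.22, 1.40 and 0.79 TPM in rGST and at 3.82, 2.08 and 1.57 TPM in rSLURP1 (0.95, SE 0.313, adjusted p = 0.028). Its rSLURP1 libraries all lay above rGST, the nearest at 1.57 against 1.40 TPM, and the call was lost without rSLURP1 replicate 1 (0.70, adjusted p = 0.09). It was lost as well without rSLURP1 replicate 2 (adjusted p = 0.0541), rGST replicate 1 (0.0777) or rGST replicate 3 (0.0565). Hist1h4n and its near-copy Hist1h4m summed to 3.13, 2.22 and 4.35 TPM in rGST and to 8.93, 4.01 and 3.11 TPM in rSLURP1, and Hist1h4k ranged from 0.00 to 7.31 TPM in rGST and from 0.28 to 6.22 TPM in rSLURP1. Neither Hist1h4n nor Hist1h4k was called.

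Replicates were less alike over the tested histone genes than over all tested genes, but these sets were not matched by level. The median SD within a group, on the log2(TPM + 1) scale, was 0.50 in rGST and 0.67 in rSLURP1 over the tested members, against 0.09 in each group over all tested genes. The 3 most clearly lower members, Hist1h1c, Hist3h2a and Hist1h2bc, had SEs of 0.092 to 0.113, whereas Hist2h2aa1 had an SE of 1.118.

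The called genes differed in the length of their annotated tails, a pattern seen after their values were known and given as a description. Of the 9 tested members with 300 or more bases after the stop codon, 5 were called lower and 0 higher, with a median log2 fold change of -0.94. The 58.5% of all tested genes called lower is about the same share. Of the other 17, 0 were called lower and 2 higher, with a median of 0.55. Without rSLURP1 replicate 1 the medians were -0.99 and 0.12, with 7 of 9 lower and 0 of 17 lower, beside 6635 of all 12301 tested genes. The 2 genes added were Hist1h2bq and Hist1h2br, near-copies that share most of their sequence and so are not 2 separate counts. Without rSLURP1 replicate 2 the medians were -0.39 and 0.78. Under median-ratio scaling 4 of 9 were lower and 4 of 17 higher, beside 3094 lower and 3198 higher of the 12301. Tails were 742 bases in Hist1h2bc, 880 in Hist1h1c, 1700 in Hist3h2a, 2192 in Hist2h2be and 376 in Hist1h4i, and the 4 long-tailed genes not called were Hist1h1e, Hist1h2bq, Hist1h2br and Hist2h3c2. Hist2h4, an untested member with a tail of 1311 bases, was at 0.71, 0.82 and 0.70 TPM in rGST and at 0.40, 0.30 and 0.28 TPM in rSLURP1, and it was called lower when no filter on low values was used. Some other untested long-tailed members went the other way. Hist1h1d, with the longest tail of any member at 4931 bases, was at 0.10, 0.08 and 0.12 TPM in rGST. In rSLURP1 it was at 0.40, 0.19 and 0.25 TPM. Hist1h3f, with 417 bases, was at 0.00, 0.00 and 0.03 TPM in rGST and at 0.23, 0.05 and 0.10 TPM in rSLURP1. Neither was called when no filter was used. Of the 68 members, 17 carry a poly(A) signal within the last 50 annotated bases, among them Hist1h1c, Hist3h2a, Hist2h2be and Hist1h4i but not Hist1h2bc. TPM does not show where in a transcript its reads lie, so levels of stem-loop and polyadenylated forms were not told apart.

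**Figure D4:**
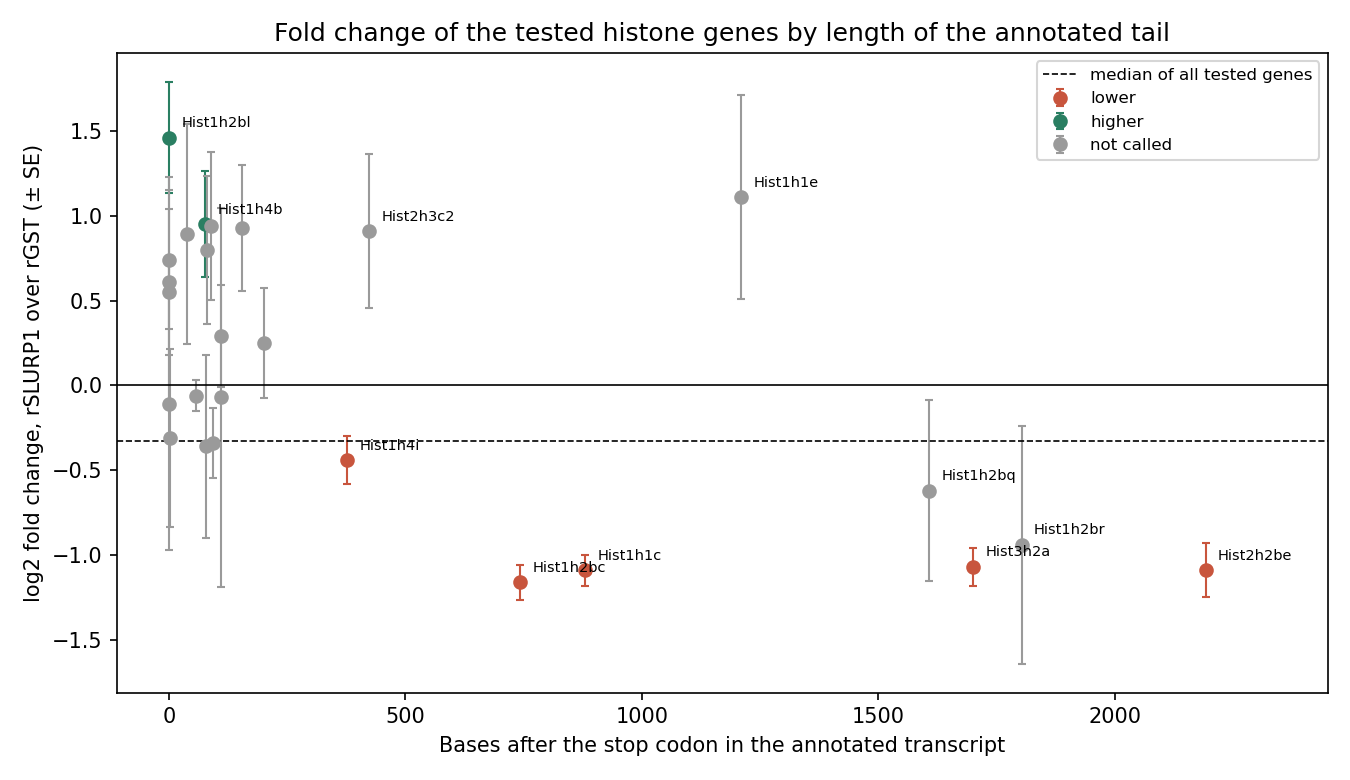
Log2 fold change (± SE, limma) of the 26 tested histone genes against the number of bases after the stop codon in the annotated transcript; red points were called lower, green higher and grey not called, and the dashed line is the median of all tested genes, -0.33. The 5 red points lie at 376 to 2192 bases, and both green points lie below 100 bases.

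The neighbours of the called genes were compared next, since H2A and H2B genes often stand head to head: 14 divergent pairs of members had starts within 1000 bases of each other, 13 of them an H2A with an H2B gene. Both members were tested in only 2 pairs, so calls could not be compared within most pairs. In 2 pairs 1 member was called lower, and its partner was not tested. Hist1h2bc fell while Hist1h2ac, whose start lies 251 bases away, was listed at 0.01 to 0.19 TPM in the 6 libraries. Hist2h2be fell while Hist2h2ac, 239 bases away, was at 0.21, 0.37 and 0.80 TPM in rGST and at 8.42, 1.87 and 0.09 TPM in rSLURP1. Hist1h2ap, at 129.72 to 159.40 TPM, starts 236 bases from Hist1h2br, which did not exceed 7.79 TPM. Other pairs were at similar mean levels, such as Hist1h2ah at 1.26 TPM and Hist1h2bk at 1.61 TPM. Hist1h2bl, called higher, starts 279 bases from the untested Hist1h2ai, which was at 0.00, 0.00 and 0.31 TPM in rGST and at 0.33, 0.91 and 1.33 TPM in rSLURP1.

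The upstream sequences of the genes that fell at least 2-fold are printed next with that of Hist1h2ap, the most abundant member, because the former were called lower together and the latter was not called. Each is the 250 bases before the RefSeq start (GRCm38.p6), 5′ to 3′ towards the gene. Capitals mark a TATA box, searched as TATAAA, and a CCAAT box. They also mark the octamer known from H2B promoters, searched as ATTTGCAT. All were searched on both strands. For Hist1h2bc and Hist2h2be the window of the divergent partner is shown, which spans the space between the starts.
Hist1h1c, chr13:23738557-23738806, plus strand: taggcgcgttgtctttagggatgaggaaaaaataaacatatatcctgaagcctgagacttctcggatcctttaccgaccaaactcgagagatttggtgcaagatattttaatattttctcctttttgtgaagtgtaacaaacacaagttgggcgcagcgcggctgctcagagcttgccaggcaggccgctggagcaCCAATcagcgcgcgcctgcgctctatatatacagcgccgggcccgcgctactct
Hist3h2a, chr11:58954435-58954684, plus strand: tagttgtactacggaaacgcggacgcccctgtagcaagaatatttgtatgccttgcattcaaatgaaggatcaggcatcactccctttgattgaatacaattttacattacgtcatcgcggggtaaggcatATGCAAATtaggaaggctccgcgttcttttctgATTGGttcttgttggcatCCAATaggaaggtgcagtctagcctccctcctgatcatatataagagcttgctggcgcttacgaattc
Hist1h2ac facing Hist1h2bc, chr13:23683960-23684209, minus strand: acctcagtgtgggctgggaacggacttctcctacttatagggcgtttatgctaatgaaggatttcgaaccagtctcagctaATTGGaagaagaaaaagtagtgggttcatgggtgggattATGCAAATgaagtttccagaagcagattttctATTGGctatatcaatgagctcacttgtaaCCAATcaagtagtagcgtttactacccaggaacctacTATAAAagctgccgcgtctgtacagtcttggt
Hist2h2ac facing Hist2h2be, chr3:96220881-96221130, minus strand: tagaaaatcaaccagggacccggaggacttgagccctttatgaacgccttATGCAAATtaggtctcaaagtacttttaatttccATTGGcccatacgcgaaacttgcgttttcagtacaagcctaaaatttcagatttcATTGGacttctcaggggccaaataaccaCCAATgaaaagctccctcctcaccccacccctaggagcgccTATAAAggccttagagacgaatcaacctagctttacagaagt
Hist1h2ap, chr13:21833476-21833725, minus strand: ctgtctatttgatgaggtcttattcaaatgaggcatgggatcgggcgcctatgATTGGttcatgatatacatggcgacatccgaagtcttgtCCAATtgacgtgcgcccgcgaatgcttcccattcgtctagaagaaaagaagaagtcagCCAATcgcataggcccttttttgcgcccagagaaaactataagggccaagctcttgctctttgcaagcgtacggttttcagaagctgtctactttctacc
RefSeq upstream sequences were found for 59 of 68 members, and CCAAT occurred in 48 of them (81.4%), against 33.8% of all 32526 windows of this length. All 16 H2A and all 16 H2B windows held it, but 3 of 12 H4 windows. Among called genes with a window of their own, 2 of 3 lower and 1 of 2 higher genes held it. TATAAA occurred in 28 of the 59 (47.5%), against 12.3% of all windows. The octamer occurred in 13 (22%), against 1.62%, in 7 H2A and 6 H2B windows and in 0 of the H1, H3 and H4 windows. Where both partners of a divergent H2A and H2B pair have a window, the windows largely cover the same bases. Both strands were searched, so such matches count for both genes and the shares above are not over separate promoters. A match shows only that these letters are in the window.

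The genes that make and handle histone mRNA and protein are given by step, each list holding known genes of that step. The counts of each list below stand beside those of all 12301 tested genes, of which 58.5% were lower and 8.66% higher. Under median-ratio scaling 3094 of all tested genes were lower and 3198 higher. Of 9 tested genes for histone gene transcription, 4 were lower and 0 higher, and under median-ratio scaling 2 were lower and 2 higher (main median log2 fold change -0.34, beside -0.33 for all genes). Without rSLURP1 replicate 1, 6 were lower and 0 higher, with Hinfp and Pou2f1 added (limma adjusted p = 0.00773 and 0.0442). Npat, the activator at histone loci, was at 11.18 to 12.05 TPM in rGST and 7.81 to 8.39 TPM in rSLURP1 (-0.46, limma adjusted p = 0.00113), and Cdk2, which phosphorylates NPAT, at 29.98 to 32.40 and 19.92 to 21.86 TPM (-0.56, adjusted p = 1.54e-04). Yy1 (-0.58) and Cdc25a (-0.46) were also lower. E2f1, Ccne1 and Ccne2 had values of 0.09, 0.16 and 0.10 and were not called. Under median-ratio scaling Cdk2 and Yy1 stayed lower (-0.22 and -0.24), Npat and Cdc25a were not called (-0.14 and -0.13), and E2f1 and Ccne1 were called higher (0.43 and 0.48).

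Of 11 tested genes for 3′ end processing, 7 were lower and 0 higher, with 4 lower and 2 higher under median-ratio scaling (main median -0.34). Slbp, the stem-loop binding protein, was at 76.11, 78.79 and 81.59 TPM in rGST and at 51.10, 56.89 and 53.42 TPM in rSLURP1 (log2 fold change -0.54, SE 0.054, limma adjusted p = 9.55e-05). The groups did not overlap, and it was lower too under median-ratio scaling at -0.19 (adjusted p = 0.00883). Cpsf3, the endonuclease that cuts histone pre-mRNA, was at -0.66 and Srrt, which joins the cap-binding complex to processing, at -0.64, both called lower. Lsm10 and Lsm11 of the U7 particle were not called, at -0.18 and -0.11.

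Of 9 turnover genes 7 were lower and 0 higher (median -0.60), and under median-ratio scaling 5 were lower and 1 higher (median -0.26). Exosc10, a nuclear exosome exonuclease, was at 80.04 to 88.52 TPM in rGST and 40.70 to 45.26 TPM in rSLURP1 (-0.95, limma adjusted p = 1.37e-05). The terminal uridylyltransferases Zcchc6 (-0.79) and Zcchc11 (-0.71) and the helicase Upf1 (-0.60) were lower, while Eri1, the exonuclease that trims the stem-loop, was at -0.28 (adjusted p = 0.0644).

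Of 20 histone chaperones and partners, 17 were lower and 0 higher (median -0.36), and under median-ratio scaling 4 were lower and 1 higher. Without rSLURP1 replicate 1, 14 were lower and 0 higher. Atrx (-0.66), Supt16 of the FACT complex (-0.52) and Ubn1 of the HIRA complex (-0.81) had the smallest p-values. Nasp, which holds a reserve of H3 and H4, was at -0.20 (limma adjusted p = 0.0549), and Nap1l1 at 0.01. Of 37 S phase genes, 26 were lower and 2 higher (median -0.38), and under median-ratio scaling 6 were lower and 6 higher. Without rSLURP1 replicate 1, 24 were lower and 1 higher. The called genes included Rrm1 of ribonucleotide reductase (-0.96), the DNA ligase Lig1 (-0.72) and the clamp loader subunit Rfc1 (-0.58), all lower, and Rfc4 (0.25) and Cdt1 (0.29), both higher. Cdt1 was not called without rSLURP1 replicate 1 (0.23, limma adjusted p = 0.126).

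Replication-independent histones are not confined to S phase and come mostly from ordinary polyadenylated mRNAs, although H2afx on this list also holds the stem-loop consensus. Their genes were far more abundant here, at 2315 to 2393 summed TPM in rGST and 1812 to 1902 in rSLURP1. Of 10 tested, 7 were lower and 1 higher (median -0.23), and under median-ratio scaling 3 were lower and 5 higher (median 0.12). H1f0, the linker histone of resting cells, was at 172.21, 171.25 and 165.06 TPM in rGST and at 96.55, 101.26 and 103.69 TPM in rSLURP1 (log2 fold change -0.75, limma adjusted p = 7.38e-06). H1fx, another linker histone, was at -0.83 and H3f3b, which encodes H3.3, at -0.75. H2afz, which encodes H2A.Z, was the gene called higher, at 239.15 to 252.33 and 267.00 to 280.39 TPM (0.14, adjusted p = 0.0151).

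**Figure D5:**
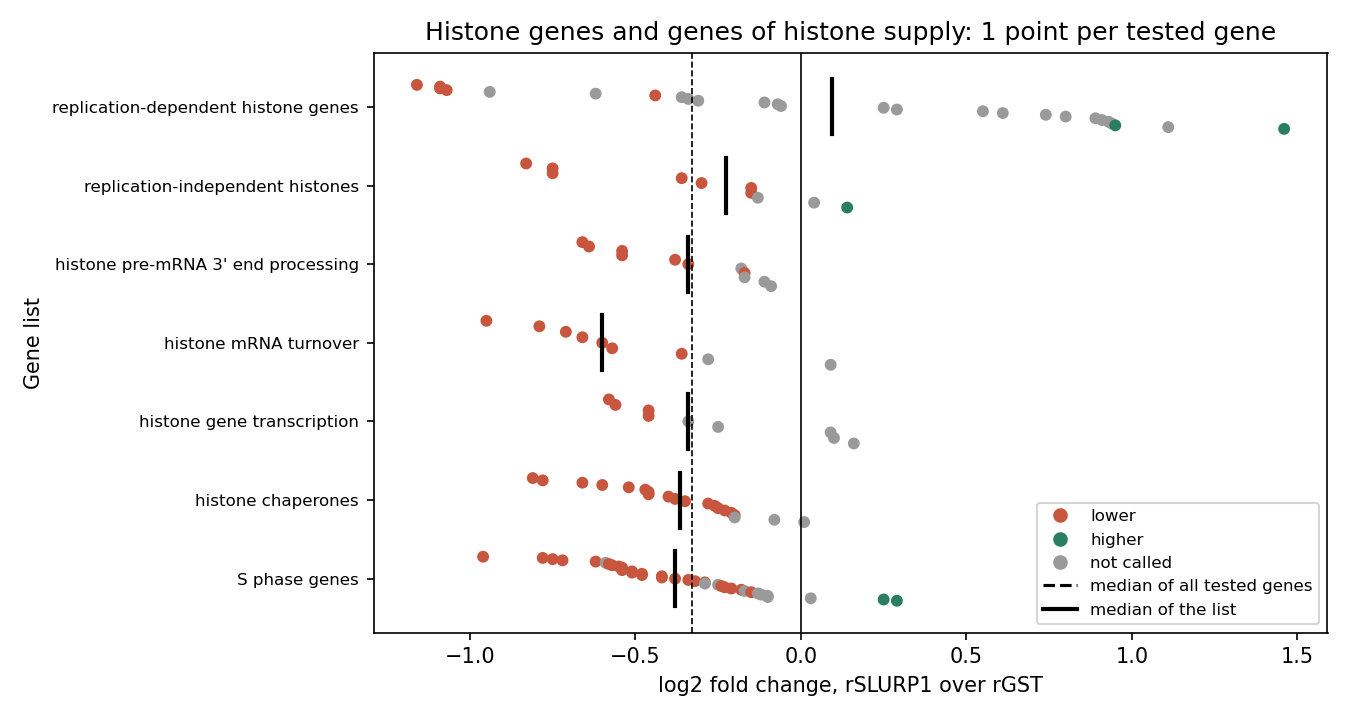
Log2 fold change of each tested histone gene and of each tested gene on 6 lists of histone supply; points are genes, red called lower, green higher and grey not called (limma), thick bars are list medians and the dashed line is the median of all tested genes, -0.33. The histone genes start at -1.16 and have a median of 0.09 (-0.12 without rSLURP1 replicate 1), their rightmost point is Hist1h2bl, which is listed at 0 in rGST and so has no defined fold, and the 6 list medians lie between -0.60 and -0.23.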

How the data were processed

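After trimming by cutadapt and alignment to mm10 by STAR 2.5.2b, the authors estimated gene levels with RSEM and deposited TPM values, 1 column per library with no pooling. The submitters' processing notes give cutadapt 1.18 and RSEM 1.3.3, and the paper's methods other versions of both. A TruSeq mRNA kit is named in the labels but Smart-seq2 in the methods, so how far RNA without a poly(A) tail was kept is not settled. TPM holds no depth, so the depth is unknown, and precision rests on 3 libraries per group.

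Genes reaching 1 TPM in 3 or more libraries were tested on log2(TPM + 1) with limma 3.58.1 (R 4.3.3, eBayes with trend), rSLURP1 against rGST, with Benjamini-Hochberg adjustment over 12301 genes, calling at an adjusted p of 0.05 and noting a fold of 2. A fold change on this scale understates the change of low genes. Class totals replaced the members by their sum in the same fit. Shares were compared by exact permutation. The fit was tested on simulated data. Transcripts, positions and shared 50-base words came from GENCODE M21 (GRCm38, the build of mm10), in which all 68 members were matched by identifier. The paper names GENCODE M12. Upstream sequences came from RefSeq GRCm38.p6, matched through synonyms. Figures were drawn with matplotlib 3.10.9.

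Genes named are the 3 most abundant members of each class, the tested member with the highest and the lowest fold change in each, Slbp and the 3 genes of smallest p on each list. Others were named after their values were seen. The members and lists were chosen with earlier results of these data known. Alternatives were other pseudocounts, filters, scalings, a fit without trend, a replicate block, a length and GC correction and leaving out each library.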

Additional observations from a re-analysis of the deposited data

How the results depend on the processing

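Hist1h1c, Hist1h2bc and Hist3h2a were called lower under all 15 alternatives, and Hist2h2be under the 14 that tested it (it did not pass the filter in all libraries). The H1 total, most of it Hist1h1c, was called lower under all 15. Calls among members ranged from 4 to 7 lower. Higher calls were 2 in the fit reported and 1 with no filter, 0 with the filter in all libraries (10 members tested), 4 under median-ratio scaling and 1 to 3 on leaving out 1 library. Lower calls of at least 2-fold went from 4 to 0 when libraries were scaled by median ratio and when they were quantile normalized. They also went to 0 once length and GC were corrected for (block or no block). These settings move the all-gene median from -0.33 to between -0.00 and 0.03. The count was 4 each time 1 library was left out, but not always for the same genes. Without rSLURP1 replicate 1, Hist1h1c and Hist3h2a were both at -0.99, just short of 2-fold. Hist1h2bq (-1.25) and Hist1h2br (-1.73) were counted in their place.

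The H2A total turned from -0.03 to 0.32 under median-ratio scaling, 0.18 under quantile normalization and 0.00 under the length and GC correction with and without the block, and ranged from -0.16 to 0.07 on leaving out 1 library. On leaving out 1 library the H2B total ranged from -0.79 to -0.22, the H3 total from 0.18 to 1.38 and the H4 total from -0.20 to 0.45. Hist1h2ap turned to 0.30 (median-ratio) and 0.17 (quantile) and ranged from -0.15 to 0.01 on leaving out 1 library. Hist1h4k turned to 0.36 with a pseudocount of 0.1, 0.11 (median-ratio) and 0.22 (quantile), with -0.99 to 0.55 on leaving out 1 library (0.14 and 0.54 without rGST replicates 1 and 3, 0.55 without rSLURP1 replicate 2). Rny3 turned to -0.08 under the length and GC correction with and without the block. Apart from the changes of scale, the cause was not tested.

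Same-numbered libraries did not deviate together (correlations -0.056, -0.034 and -0.061, others 0.007 to 0.048). Deviations were taken from group means of 3 libraries, which ties these correlations to each other. They do not settle whether same-numbered libraries were handled together. With the replicate number as a block, 4 members were lower and 3 higher (Hist1h2bl, Hist1h2bm and Hist1h4a), with Hist1h4i at adjusted p = 0.0517 and Hist1h4b at 0.057, and the H1 total stayed at -0.86 (adjusted p = 5.49e-04). Over the named genes, 511 values had the direction and call reported, 32 lost the call, 7 gained it and 11 turned.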
